A study of Mus musculus with 58 samples.

Results

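Axonal transport motor genes encode the kinesins, the cytoplasmic dyneins and dynactin, the machines that carry cargo along microtubules. Members were the genes of the count table whose symbol starts with Kif followed by a digit or by a, b or c, with Klc and a digit, or with Dync, Dynl or Dctn. This gave 40 of 9636 genes: 20 genes named Kif, 3 kinesin light chain genes (Klc), 7 dynein genes named Dync, 4 dynein light chain genes named Dynl and 6 dynactin genes (Dctn). Those named Kif are kinesins except for the kinesin-2 adaptor Kifap3 and the kinesin-binding protein Kifbp. The rule itself uses symbols and no measured value. A wider list of 79 genes by role holds these 40, and its other genes, most of them kinesins of cell division and other dynein light chains, were not analysed here.

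Kinesins walk mainly toward the plus ends of microtubules, which in axons point away from the cell body, and so drive outward transport. Cytoplasmic dynein walks toward the minus ends and brings endosomes, mitochondria and survival signals back, and it needs dynactin to move over long distances. Axons stretched by a head injury can accumulate cargo where transport stalls, and long-axon neurons depend on a steady supply of motor proteins.

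The samples were 58 libraries of bulk RNA from the somatosensory cortex of C57BL/6J mice, 35 from females and 23 from males. At an age of 2 to 4 months the mice had 5 daily closed head injuries (5xCHI) or as many sham procedures. At 30 min after every procedure they were injected intraperitoneally with SB239063 (SB, 20 mg/kg), an inhibitor of the stress kinase p38 MAPK, or with its vehicle, physiological saline. All libraries are labelled chronic, which the design puts at about 1 month past the final procedure (near day 18 or day 34, not told apart by animal). In females there were 12 injured vehicle, 11 injured SB, 9 sham vehicle and 3 sham SB mice; in males there were 8, 8, 5 and 2. Over both sexes this makes 20 injured vehicle, 19 injured SB, 14 sham vehicle and 5 sham SB mice. The labels name 4 cohorts in each sex, F1 to F4 and M1 to M4, without saying what a cohort shares. No label ties 2 libraries to 1 mouse; p-values measure the spread between these libraries.

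Totals over the 9636 genes ran from 28316280 to 49158277 counts per library, and the motor genes took 1.72% ± 0.112 (SD, n = 58) of them. For each library a length slope was computed: the slope of log2 CPM (counts scaled to the library's total), relative to each gene's mean, on log2 exon length over the genes that are not motor genes. A low slope means that long transcripts were counted less in that library. In 5 libraries it lay more than 3 median absolute deviations below the median of 0.0269, between -0.208 and -0.152. They were 2 sham vehicle females, 2 sham vehicle males and 1 injured vehicle female, so 4 of 5 stood in the sham vehicle group. All 8 neuron markers listed (such as Snap25, Syt1 and Slc17a7) and all 8 oligodendrocyte markers (such as Mbp and Mog) were measured. Of 6 striatal markers, a check on the dissection, 3 were measured, and their mean log2 CPM ran from 4.07 to 7.69 between libraries. In bulk tissue, fewer cells of a type and less RNA per cell cannot be told apart.

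Levels are given as CPM per kb of exon when genes are compared, and as CPM when groups are compared for 1 gene. Motor genes were abundant in this cortex: their median was 56.4 CPM per kb, against 14.0 over the 9631 genes with an exon length. Kif5a, the neuronal heavy chain of kinesin-1, stood highest at 675 ± 102 CPM per kb (SD, n = 58), above 99.9% of genes. Its relatives Kif5c, also neuronal, and Kif5b, the ubiquitous form, stood at 194 ± 25.1 and 84.7 ± 11.7 CPM per kb. Within the kinesin-1 heavy chains Kif5a thus made up 70.6% ± 2.46 of the level, Kif5c 20.4% ± 1.83 and Kif5b 8.98% ± 1.42 (SD, n = 58). Klc1, the main neuronal light chain that links kinesin-1 to cargo, stood at 244 ± 23.5 CPM per kb, and made up 66.6% ± 1.80 of the 3 light chains, above Klc2 (111 ± 12.6 CPM per kb) and Klc4 (11.7 ± 1.87).

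Among the other kinesins, Kif1a, which carries synaptic vesicle precursors, stood at 195 ± 25.6 CPM per kb and Kif1b, which carries mitochondria and synaptic vesicle precursors, at 76.1 ± 11.7 CPM per kb. The order of Kif1a and Kif5c was not separated by their spread. The heterotrimeric kinesin-2 genes differed in level, with the adaptor Kifap3 at 81.9 ± 8.00 and the motor Kif3a at 56.7 ± 4.07 CPM per kb. The alternative partners of Kif3a were lower, Kif3c at 43.7 ± 5.26 and Kif3b at 18.8 ± 2.78 CPM per kb. Kif17, a homodimeric kinesin-2 known for dendritic transport of NMDA receptors, was lower at 10.5 ± 1.30 CPM per kb. Kifc2, a minus-end kinesin of the brain, was the sixth of the 40 at 169 ± 16.6 CPM per kb. The lowest member was Kif16b, a motor of early endosomes, at 3.14 ± 0.435 CPM per kb.

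The dynein-1 heavy chain gene Dync1h1, which encodes the motor itself, stood at 72.4 ± 11.0 CPM per kb. Light intermediate chain genes Dync1li2 and Dync1li1 stood at 70.5 ± 5.09 and 35.7 ± 2.47 CPM per kb, and intermediate chain genes Dync1i2 and Dync1i1 at 63.4 ± 8.24 and 43.5 ± 4.22 CPM per kb. The dynein-2 genes, whose products serve transport inside cilia, were near the bottom: Dync2li1 at 9.65 ± 1.03 and Dync2h1 at 3.94 ± 0.623 CPM per kb. The dynactin genes ran from Dctn2, encoding dynamitin, at 128 ± 9.63 and Dctn1, encoding p150Glued, at 100 ± 12.3 down to Dctn4 at 19.3 ± 1.39 CPM per kb.

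**Figure D1:**
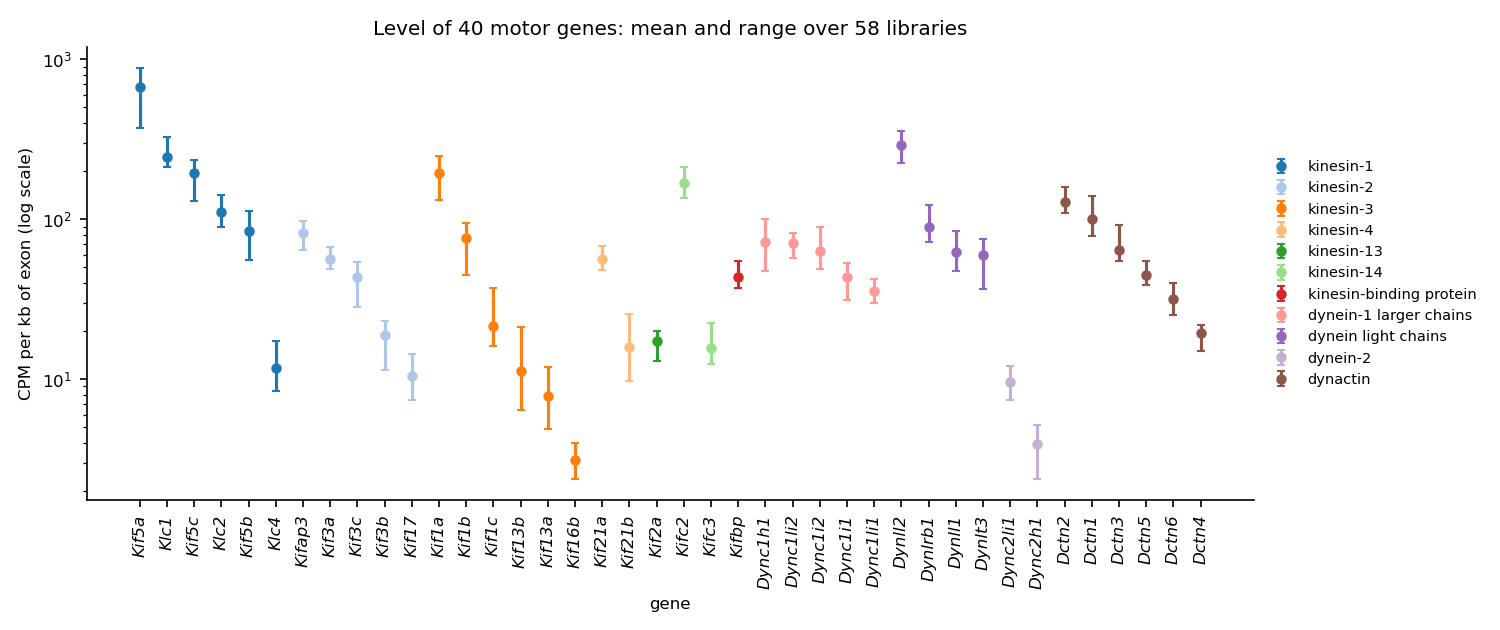
Level of each of the 40 motor genes in CPM per kb of exon (log axis), grouped by role; points are means over 58 libraries and bars run from the lowest to the highest library. Kif5a is highest at 675 CPM per kb and Kif16b lowest at 3.14.

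The second most abundant member, Dynll2, and its relative Dynll1 encode the hub light chains of dynein, small proteins that many other complexes also use. Dynll2 stood at 290 ± 25.6 and Dynll1 at 62.6 ± 7.74 CPM per kb, so that Dynll2 made up 82.2% ± 1.87 of the pair. Their coding sequences are shown because this split rests on telling apart reads of 2 close relatives. They are from the GENCODE M21 transcripts, 5′ to 3′, with the bases that differ in capitals. Dynll1 is encoded on chromosome 5 (GRCm38, chr5:115298699-115300644, minus strand, 2 coding exons) and Dynll2 on chromosome 11 (chr11:87981436-87984003, minus strand, 2 coding exons).
Dynll1: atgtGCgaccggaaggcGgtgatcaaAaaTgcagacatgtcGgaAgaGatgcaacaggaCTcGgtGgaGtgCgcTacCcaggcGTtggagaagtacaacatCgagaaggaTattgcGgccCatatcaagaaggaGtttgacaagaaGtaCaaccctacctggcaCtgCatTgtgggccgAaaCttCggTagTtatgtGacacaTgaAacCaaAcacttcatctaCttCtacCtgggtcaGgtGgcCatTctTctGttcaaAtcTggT
Dynll2: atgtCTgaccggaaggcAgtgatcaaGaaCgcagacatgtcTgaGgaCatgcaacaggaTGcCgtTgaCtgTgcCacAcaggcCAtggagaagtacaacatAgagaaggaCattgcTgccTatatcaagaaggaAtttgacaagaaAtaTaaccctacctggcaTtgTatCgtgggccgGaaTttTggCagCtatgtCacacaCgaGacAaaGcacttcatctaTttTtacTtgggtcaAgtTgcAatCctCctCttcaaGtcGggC
Of 267 bases, 50 differed (81.3% identical), 45 of them at codon position 3, and the longest run shared by the coding sequences was 16 bases. No 50-base window was shared by any transcripts of the pair, nor by those of the other 15 pairs of motor relatives checked, such as Kif5a and Kif5c.

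The spread between libraries differed among these genes. After groups and cohorts were taken out, the SD between libraries was smallest for Dync1li1 (0.084 on the log2 scale), Kif3a (0.086) and Dync1li2 (0.087). It was greatest for Kif13b (0.27) and Kif13a (0.24), kinesin-3 motors, followed by Dync2h1 (0.22). The median over the members was 0.15, against 0.16 over all genes.

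Repeated head injury was compared with sham in vehicle mice, to see whether motor transcripts still differed after about a month. No motor gene passed (adjusted p under 0.05 by edgeR's quasi-likelihood test with Benjamini-Hochberg adjustment over 9636 genes; background 0.0%). At an unadjusted p under 0.05 there was 1 of 40 members, against 1.75% of all genes, and DESeq2 also called 0 and had 1 at that level. Of the 40, 21 were above and 19 below sham, against 49.4% of all genes above, and the median log2 fold change was 0.0063 (all genes -0.00067). The widest reach of any member's 95% interval was a 1.18-fold difference. The gene with the smallest p was Dctn3, which encodes the p24 subunit of dynactin's shoulder. Dctn3 ran from 55.2 to 89.2 CPM (median 63.6) in 14 sham vehicle mice and from 53.7 to 79.6 CPM (median 60.9) in 20 injured vehicle mice. The groups overlapped, and the 2 highest sham libraries were among the 5 of low length slope. The log2 fold change of Dctn3 was -0.12 ± 0.057 (SE; p = 0.0384, adjusted p = 1.00 by edgeR), lower in 7 of 8 cohorts. It was -0.064 without sham vehicle male 2, the library of highest Dctn3.

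By role, all 6 Dctn genes lay below sham (median -0.024) and all 5 larger chains of dynein-1 above (median 0.030). Single cohorts did not share these directions throughout. Dctn genes lay below sham in 3 (Dctn5) to 7 (Dctn3) of 8 cohorts. The larger dynein-1 chains lay above sham in 3 (Dync1h1, Dync1i1) to 5 (Dync1i2, Dync1li1, Dync1li2) of 8. Kinesin-1 genes were split, 3 above and 3 below. Kif5a ran from 2599 to 6161 CPM (median 4815) in sham vehicle and from 3585 to 6205 CPM (median 4786) in injured vehicle mice. The medians were nearly equal, and the injured range lay mostly inside the sham range. Its log2 fold change was 0.077 ± 0.073 (SE; p = 0.293). Kif1b ran from 667 to 1361 CPM (median 1147) in sham and from 811 to 1320 CPM (median 1187) in injured mice, a log2 fold change of 0.079 ± 0.066 (SE; p = 0.238). Next on the higher side were Dync1li2 (0.041 ± 0.034), Kif3b (0.060 ± 0.060) and Dync1li1 (0.032 ± 0.034). On the lower side were Dynll2 (-0.070 ± 0.041; p = 0.0985), Dync2li1 (-0.069 ± 0.058), Klc4 (-0.074 ± 0.077) and Kif3a (-0.030 ± 0.034). All had an adjusted p of 1.00 by edgeR. Single sham vehicle libraries moved several of these by over 1.5 times: without male 2, Kif1b was at 0.040, Dync1li2 at 0.010, Dynll2 at -0.045 and Klc4 at -0.034. Without female 7, Kif5a was at 0.035 and Kif3b at 0.023. Without male 1, Dync1li1 was at 0.017, and Kif3a was at -0.0018 without male 4 and at -0.055 without male 3.

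**Figure D2:**
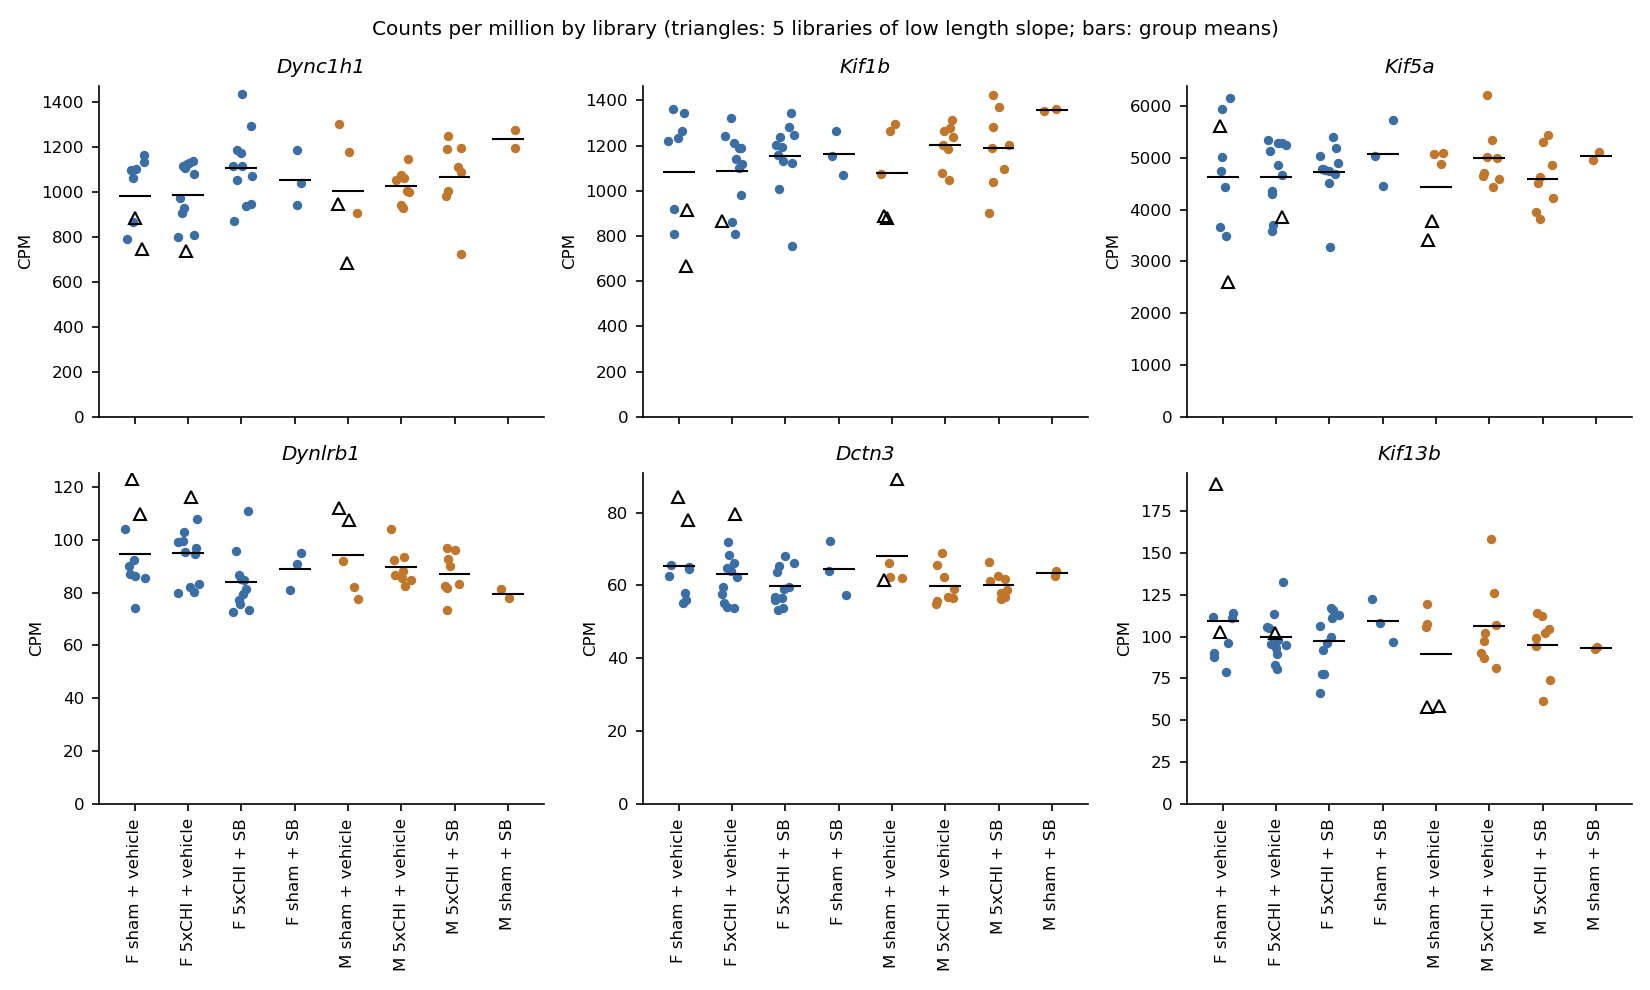
CPM of 6 motor genes in each library by sex and condition; points are libraries, triangles the 5 libraries of low length slope and bars group means. Injured and sham vehicle libraries overlap for all 6 genes, and the triangles lie at the low end for Kif1b (667 to 917 CPM) and toward the high end for Dynlrb1.

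These small differences were ordered by exon length, from 973 bases in Dctn3 to 14983 in Kif1b. Of 13 members under 3 kb, 9 lay below sham, and of 14 over 6 kb, 12 lay above. Spearman's rho between log2 fold change and exon length was 0.58 over the 40 members and 0.51 over 9631 genes with a length; genes are not independent replicates. Without the 5 libraries of low length slope, a choice made after seeing the data, the order turned, with rho at -0.72. Then 10 of the 13 short members lay above sham and 13 of the 14 long members below. These libraries were picked by their length slope, and 4 of the 5 were sham vehicle. Leaving them out therefore shifts the order by length in itself, so the turn is not a separate result. At an unadjusted p under 0.05 there were then 3 of 40 members by edgeR, against 3.56% of all genes, again with no adjusted call. Among them were Dync2h1 at -0.15 (p = 0.0174) and Kif3c at -0.085 (p = 0.0211). With the length slope as a covariate and all 58 libraries kept, rho was -0.085.

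**Figure D3:**
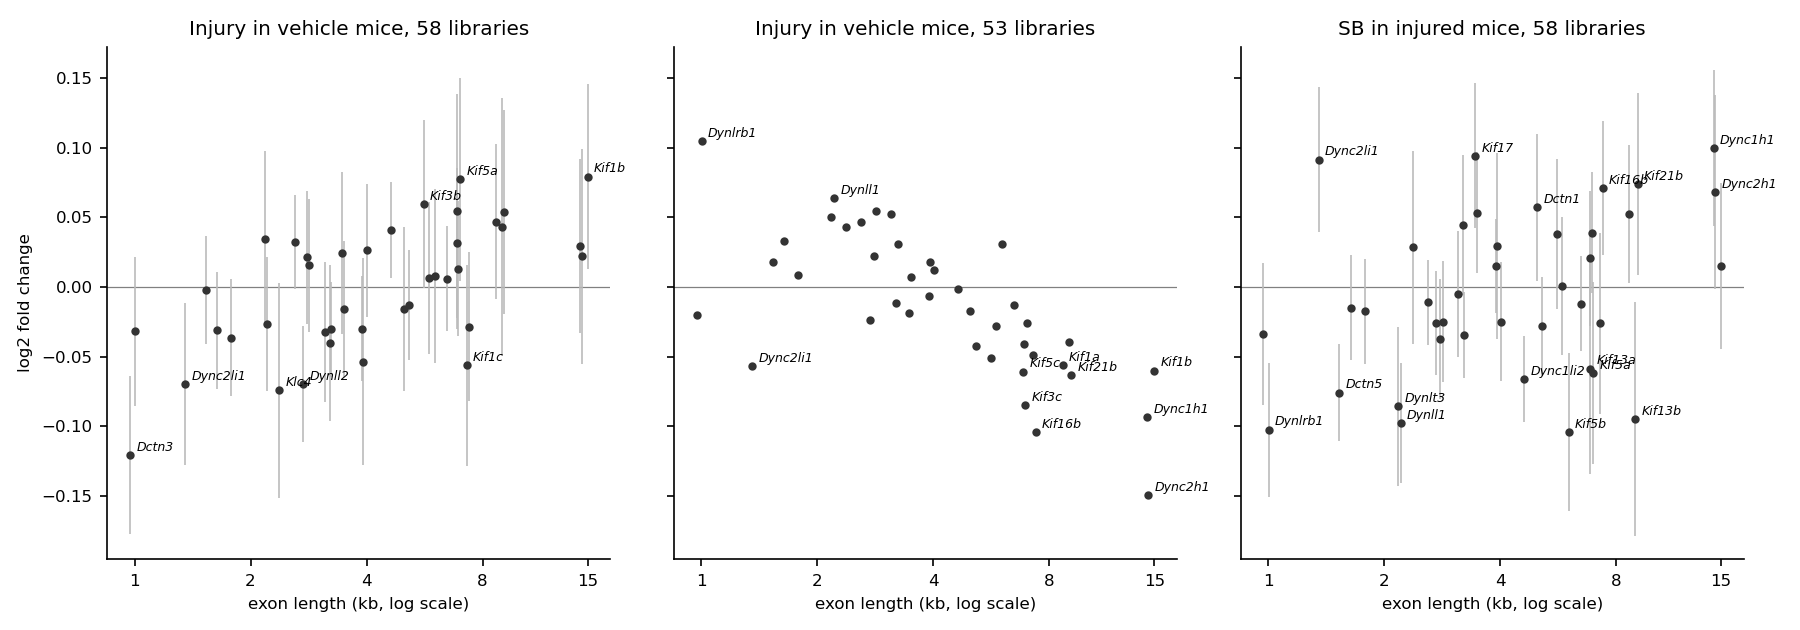
Log2 fold change of each motor gene against its exon length (log axis), for injury in vehicle mice with 58 and with 53 libraries and for SB in injured mice; bars are SE where drawn. The injury values climb with length in 58 libraries (rho 0.58) and descend in 53 (rho -0.72). The libraries left out were picked by length slope, which in itself shifts this order. Genes beyond 0.055 on the log2 scale are named.

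SB was compared with vehicle in injured mice. No motor gene passed (0 of 40 by edgeR, background 0.0%; 0 by DESeq2). At an unadjusted p under 0.05 there were 4 of 40 members by either tool, against 7.06% of all genes. All 4 lay below vehicle, where 3.64% of all genes lay at that level. Over all members 18 lay above and 22 below vehicle (52.2% of all genes above), with a median of -0.011 (all genes 0.0034), and the 95% intervals reached at most a 1.20-fold difference. The 4 dynein light chain genes all lay below vehicle (median -0.091), as did 5 of 6 Dctn genes (median -0.023).

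Dynll1 ran from 121 to 188 CPM (median 137) in 20 injured vehicle mice and from 105 to 160 CPM (median 131) in 19 injured SB mice. The ranges overlapped over most of their length. Its log2 fold change was -0.097 ± 0.043 (SE; p = 0.0289, adjusted p = 0.689 by edgeR), below vehicle in 6 of 8 cohorts. Dynlrb1, a roadblock light chain, ran from 79.8 to 116 CPM (median 92.9) and from 72.8 to 111 CPM (median 83.4), a log2 fold change of -0.10 ± 0.048 (p = 0.0385). Dctn5, of dynactin's pointed end, ran from 61.8 to 84.3 CPM (median 69.2) and from 59.1 to 72.5 CPM (median 66.9), at -0.076 ± 0.035 (p = 0.0333). The Dctn5 ranges overlapped, and 7 of 8 cohorts were below vehicle. Dync1li2 was at -0.066 ± 0.031 (p = 0.0375), and Kif5b at -0.10 ± 0.057 (p = 0.0720).

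On the other side, Dync1h1 ran from 738 to 1146 CPM (median 1028) with vehicle and from 725 to 1432 CPM (median 1109) with SB, a log2 fold change of 0.10 ± 0.056 (p = 0.0806), above vehicle in 7 of 8 cohorts. Kif17 was at 0.094 ± 0.052 (p = 0.0755), Dync2li1 at 0.092 ± 0.052, Kif16b at 0.071 ± 0.048 and Kifc2 at 0.053 ± 0.044. Spearman's rho between log2 fold change and exon length was 0.32 over the members and 0.36 over all genes, and -0.11 over the members with the length slope as a covariate. With that covariate, 2 of 40 members had an unadjusted p under 0.05 by edgeR (8.80% of all genes): Dync1li2, at -0.086 (p = 0.00132, adjusted p = 0.48), and Kif5b, at -0.12 (p = 0.0379). Without the 5 libraries of low length slope, 5 of 40 had an unadjusted p under 0.05 by edgeR (10.4% of all genes) and 0 an adjusted one. Values of cell type markers under SB were as follows. All 8 oligodendrocyte markers lay below vehicle with an unadjusted p under 0.05 and none with an adjusted one (median -0.37). Their mean log2 CPM ran from 7.10 to 8.76 in injured SB and from 8.05 to 9.31 in injured vehicle mice. The 3 striatal markers lay above vehicle (median 0.31). The part of either in the motor gene values was not tested.

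The core subunits not yet given by group had these levels. Kif5c averaged 1295 ± 217 CPM (SD, n = 14) in sham vehicle, 1308 ± 150 (SD, n = 20) in injured vehicle and 1352 ± 172 (SD, n = 19) in injured SB mice. Klc1 averaged 772 ± 106, 761 ± 65.9 and 757 ± 61.4 CPM in the same groups. Kif1a averaged 1601 ± 267, 1652 ± 176 and 1740 ± 210 CPM. The 3 means of each gene lay within 1 SD of each other. The same was true of Kif3a (188 ± 13.9, 185 ± 12.1 and 181 ± 13.4 CPM) and of Kifap3 (326 ± 38.2, 330 ± 30.3 and 326 ± 32.1 CPM). Dync1i1, an intermediate chain of neurons, averaged 121 ± 14.1, 123 ± 11.6 and 120 ± 10.8 CPM, Dynll2 825 ± 71.5, 790 ± 75.9 and 778 ± 63.7 CPM, and Dctn1 491 ± 72.3, 491 ± 57.2 and 514 ± 58.6 CPM. Kif5b, the ubiquitous heavy chain, averaged 528 ± 85.9, 524 ± 64.0 and 490 ± 67.4 CPM. Within families, Kif5a made up 69.8% ± 3.56, 71.0% ± 2.17 and 70.6% ± 1.86 of the kinesin-1 heavy chains, and Dynll2 82.3% ± 1.99, 81.7% ± 1.91 and 82.8% ± 1.57 of the light chain pair. In the 5 sham SB mice Klc1 made up 64.9% ± 1.44 of the kinesin light chains, against 66.7% ± 2.45 in sham vehicle and 67.1% ± 1.47 in injured vehicle mice. Dync1i1 made up 44.3% ± 2.94 of the intermediate chains there, against means of 40.2% to 40.8% in the other groups. The sham SB mice came from cohorts F1, F2, M1 and M2 only, and the shares were not adjusted for cohort, so treatment and cohort cannot be told apart in them. No share was tested.

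Injured SB mice were also set against sham vehicle mice, and SB against vehicle in sham mice; these comparisons share groups with those above and are not independent of them. Neither had a motor gene past the threshold by edgeR or DESeq2 (background 0.0% in both). At an unadjusted p under 0.05 there were 6 of 40 (12.6% of all genes; 7 by DESeq2) and 3 of 40 (7.02%; 3 by DESeq2). For injured SB against sham vehicle, Dctn3 was at -0.15 ± 0.057 (SE; p = 0.00935), Dynll1 at -0.12 ± 0.049 (p = 0.0138), Dync1h1 at 0.13 ± 0.063 (p = 0.0462) and Kif17 at 0.12 ± 0.059 (p = 0.0480); Dynlrb1 and Dynll2 were the other two, at -0.13 ± 0.054 and -0.095 ± 0.042, with adjusted p of 0.351 to 0.395 by edgeR for the first 4. In sham mice under SB, Kif1a stood at 1595, 1772 and 2003 CPM in the 3 females and at 1992 and 2010 CPM in the 2 males, against 1149 to 1998 CPM (median 1625) in 14 with vehicle. The ranges overlapped, with 2 SB libraries above every vehicle library; the log2 fold change was 0.22 ± 0.086 (p = 0.0138, adjusted p = 0.677 by edgeR). Dync1h1 was at 0.20 ± 0.096 (p = 0.0447), Dctn5 at -0.13 ± 0.060 (p = 0.0364) and Kif3a at -0.088 ± 0.054 (p = 0.107). The 5 sham SB libraries all had a positive length slope (0.0106 to 0.0663), whereas sham vehicle libraries ran from -0.208 to 0.0853. Spearman's rho with exon length was 0.59 for injured SB against sham vehicle and 0.67 for SB in sham mice. Without the 5 libraries of low length slope, a choice that in itself shifts this order, it was -0.54 and -0.24. Then 1 and 0 of 40 members had an unadjusted p under 0.05 by edgeR, against 3.82% and 3.78% of all genes.

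The interaction asks whether the SB difference was another one in injured than in sham mice. It had 0 of 40 motor genes past the threshold and 0 at an unadjusted p under 0.05 (1.38% of all genes), by edgeR and by DESeq2. Kif1a was at -0.17 ± 0.099 (SE; p = 0.0997), Kif5a at -0.18 ± 0.13 (p = 0.167), Dctn6 at 0.072 ± 0.076 and Dync1i2 at 0.079 ± 0.086.

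The sexes were also compared apart, as contrasts within the same fit of all 58 libraries, which shares its estimate of spread between the sexes. For injury in vehicle females, 1 of 40 members had an unadjusted p under 0.05 (3.14% of all genes) and 0 an adjusted one, by edgeR and DESeq2 alike: Kif16b at -0.16 ± 0.065 (SE; p = 0.0189). There Dynll2 was at -0.081 ± 0.050, Kifc2 at 0.064 ± 0.059 and Dync1i1 at 0.049 ± 0.058. In males it was 2 of 40 (3.55% of all genes) and 0, again with both tools: Dync1li2 at 0.13 ± 0.054 (p = 0.0220) and Dctn3 at -0.19 ± 0.090 (p = 0.0441). Kif13b was at 0.24 ± 0.15 and Dctn2 at -0.086 ± 0.067 in males. The male minus female difference had 3 of 40 members at an unadjusted p under 0.05 (6.13%) and 0 adjusted. Dync1li2 was at 0.18 ± 0.069 (p = 0.0136, adjusted p = 0.786 by edgeR), Kif16b at 0.26 ± 0.11 (p = 0.0187), Kif13b at 0.39 ± 0.19 (p = 0.0418), Kifc2 at -0.16 ± 0.097 and Klc1 at -0.12 ± 0.10. Spearman's rho with exon length was 0.69 in males and -0.15 in females; 2 of the 5 sham vehicle males, against 2 of the 9 females, had a low length slope. Without the 5 libraries rho was -0.44 in males and -0.44 in females, and picking them by slope in itself shifts rho. At an unadjusted p under 0.05 by edgeR there were then 1 of 40 members in males (5.37% of all genes) and 6 of 40 in females (15.2%).

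Under SB in injured females, 4 of 40 members had an unadjusted p under 0.05 by edgeR and by DESeq2 (7.21% of all genes) and 0 an adjusted one. Dynll1 was at -0.16 ± 0.056 (SE; p = 0.00574, adjusted p = 0.693 by edgeR), Dynlrb1 at -0.16 ± 0.062 (p = 0.0106), Dctn5 at -0.097 ± 0.044 (p = 0.0334), Dync1h1 at 0.15 ± 0.072 (p = 0.0467) and Kif21b, a kinesin-4 motor, at 0.15 ± 0.084. In injured males it was 0 of 40 (1.88% of all genes) with both tools: Dync2li1 was at 0.12 ± 0.080, Kif17 at 0.11 ± 0.080, Dync1li2 at -0.079 ± 0.047 and Kif5a at -0.12 ± 0.10. The difference between the sexes was not past either threshold for any member (0 of 40 at an unadjusted p under 0.05; 0.913% of all genes), so the female values are not shown to differ from the male ones. It was 0.13 ± 0.087 for Dynll1, 0.12 ± 0.096 for Dynlrb1, -0.15 ± 0.13 for Kif21b and -0.15 ± 0.15 for Kif13a.

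Other genes of the transport pathway were taken as lists, to be read against the 1.75% (injury) and 7.06% (SB) of all genes at an unadjusted p under 0.05. The other 6 dynactin subunits, among them the actin-like Actr1a and the capping proteins, had 0 of 6 past either threshold for injury and for SB; the smallest p was that of Capzb for injury (-0.030 ± 0.035 SE) and of Capza1 for SB (-0.064 ± 0.047). Dynein regulators and adaptors had 0 of 16 past the adjusted threshold in both. For SB, 3 of 16 had an unadjusted p under 0.05, Rab11fip3 and Htt above and Snapin below, led by Htt, the huntingtin scaffold, at 0.12 ± 0.050 (p = 0.0237, adjusted p = 0.689 by edgeR). For injury the smallest p was that of Rilpl1 (-0.076 ± 0.062). Kinesin adaptors and cargo linkers had 0 of 27 adjusted calls. Rhot2, which links mitochondria to motors, led for injury at -0.091 ± 0.049 (p = 0.0698). Fez1, a kinesin-1 adaptor, led for SB at -0.088 ± 0.031 (p = 0.00716, adjusted p = 0.655 by edgeR), and with Fez2 made up the 2 genes of the list at an unadjusted p under 0.05. Microtubule tracks and track proteins had 0 of 25 adjusted calls and, for SB, 3 of 25 unadjusted ones, Mapt, Tubb4a and Tuba1a, all below vehicle. Mapt, which encodes tau, led for SB at -0.068 ± 0.028 (p = 0.0177), and Map7d2, a kinesin-1 cofactor on microtubules, for injury at -0.076 ± 0.050 (p = 0.133).

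Levels were also compared between cohorts. In females 20 of 40 passed the test over cohorts F1 to F4 (adjusted p under 0.05 by edgeR), the same share as the 50.0% of all genes that did, so the count is not a result about motor genes. DESeq2 called 21. In males 1 of 40 passed over M1 to M4, against 3.83% of all genes. The female calls took in long anterograde motors (Kif5a, Kif5b, Kif5c, Kif1a, Kif1b), kinesin-2 genes (Kif3a, Kif3b, Kif3c, Kif17), the dynein heavy chain genes Dync1h1 and Dync2h1 and the light chain genes Dynll1, Dynll2 and Dynlrb1.

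Kif3b had the smallest p (F = 14.2, adjusted p = 1.73e-05 by edgeR). It stood at 73.4, 78.0, 78.9, 85.1 and 87.3 CPM in the 5 libraries of cohort F4 and ran from 106 to 128 CPM (median 117) in F1. The F1 and F4 ranges did not meet, while F3 ran from 64.2 to 129 CPM and spanned both. Kif1b was at 831 ± 62.7 CPM (SD, n = 5) in F4 and 1213 ± 68.3 (SD, n = 10) in F1. Kif5c averaged 1019 and 1409 CPM, and Kif3c stood at 242 ± 17.9 and 329 ± 19.7 CPM, in F4 and F1. The shorter genes Dync1i2 and Dynll1 had the opposite order. Dync1i2 ran from 217 to 243 CPM in F4 and from 139 to 172 CPM in F1, and Dynll1 stood at 163 ± 10.6 CPM in F4 and 139 ± 14.3 in F1. F4 also had the lowest length slope of the female cohorts, -0.0894 ± 0.0416 (SD, n = 5), against 0.0453 ± 0.0238 (SD, n = 10) in F1. With the length slope as a covariate, 19 of 40 were called in females (41.6% of all genes).

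In males the call was Dync1li1 (adjusted p = 0.0488 by edgeR), at 84.6 ± 4.87 CPM (SD, n = 5) in M4 and from 95.7 to 98.6 CPM on average in M1 to M3. The call was at the threshold: leaving out 1 library at a time left 0 calls in 44 of 58 cases and gave 3 in 1 case, without sham vehicle female 7. The next genes were Kif3c (adjusted p = 0.0980), Kif21a (0.118), Dync1h1 (0.172), Kifbp (0.190) and Dync1i2 (0.203), none past the threshold. Without the 5 libraries of low length slope, 30 of 40 were called in females (61.3% of all genes) and 8 in males (16.4%). The labels do not say whether a cohort is a time of injury, of extraction or of sequencing, so these cannot be told apart.

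**Figure D4:**
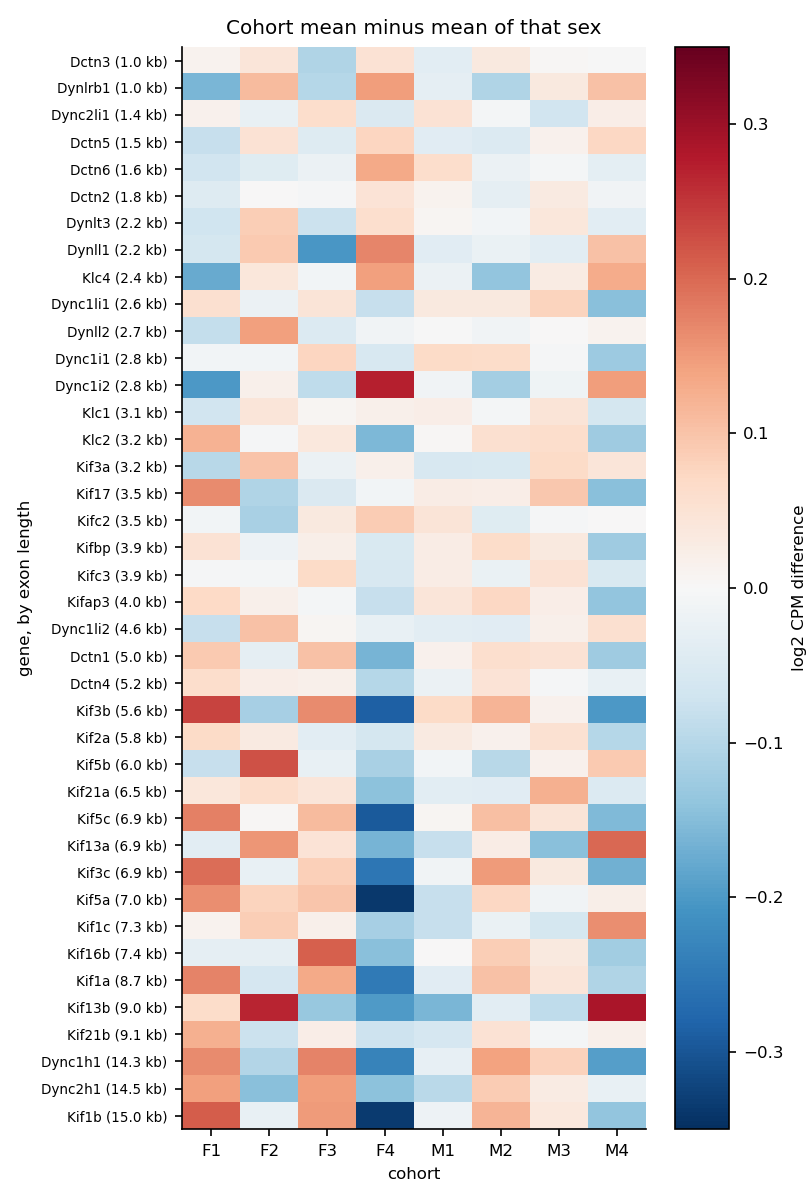
Difference of each cohort's mean log2 CPM from the mean of its sex, for 40 motor genes ordered by exon length. In F4 most long genes are below the mean (Kif5a -0.34, Kif1b -0.33) and several short genes above it (Dync1i2 0.27, Dynll1 0.17).

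Within cohorts the level of a motor gene was then set against 3 measures of each library: the length slope, the mean of the oligodendrocyte markers and the mean of the neuron markers. Only cohort means were taken out, so differences between injury and treatment groups remain in these relations. Each of 3 families held all genes (58 libraries; 100000 permutations within cohorts; Benjamini-Hochberg adjustment; two-sided). With the length slope, 27 of 40 members passed, against 54.5% of all genes: 15 with a positive r (27.8%) and 12 with a negative one (26.7%). Dync2h1 had r = 0.92 (rho 0.88; 0.91 without the 2 farthest libraries) and Kif1b r = 0.90 (rho 0.89; 0.86), both positive in 8 of 8 cohorts. Kif3b (0.80), Kif5c (0.78) and Dync1h1 (0.73) followed. On the other side were Dctn3 at r = -0.84 (rho -0.75; -0.78 without the 2 farthest), Dynlrb1 at -0.81, Dctn2 at -0.75 and Dynll1 at -0.70, negative in 8 of 8 cohorts. For these genes the permutation p was 1e-05, the smallest that the permutations can give (adjusted p = 5.44e-05). Dctn3 and Dynll1, the members with the smallest unadjusted p by edgeR for injury and for SB, were both among the 27 that passed. Whether the length slope caused their differences was not tested.

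With the oligodendrocyte markers, 6 of 40 members passed with a positive r and 0 with a negative one, against 5.86% and 5.01% of all genes. They were Kif13b (r = 0.78, rho 0.70; 0.74 without the 2 farthest libraries), Kif13a (0.72, rho 0.72; 0.73), Dync1li2 (0.66, rho 0.61; 0.65), Kif5b (0.65, rho 0.56; 0.60), Kif5a (0.60, rho 0.72; 0.60) and Kif1c (0.59, rho 0.57; 0.58), with permutation adjusted p from 3.72e-04 to 6.53e-04. Dync1li2 was positive in 8 of 8 cohorts and the others in 7 of 8. Kif13a moves endosomal and trans-Golgi cargo, Kif13b is its close relative, and Kif1c is a widely expressed kinesin-3. These 6 span the range of levels, from Kif13a, among the lowest, to Kif5a at the top. Kif13b was also the most variable member; it ran from 57.6 to 191 CPM in sham vehicle mice. Its highest library there, sham vehicle female 1, also had the highest oligodendrocyte mean of the 58, 9.95, and a low length slope.

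With the neuron markers, 5 of 40 passed, against 24.0% of all genes; all 5 had a positive r, as did 12.0% of all genes. Kifbp, a kinesin-binding protein that holds certain kinesins off microtubules, led with r = 0.76 (rho 0.70; 0.70 without the 2 farthest libraries; permutation adjusted p = 3.69e-04), positive in 8 of 8 cohorts. Dync2li1 (r = 0.46), Kifap3 (0.44), Dynlt3 (0.41) and Dync1li1 (0.36) were weaker, and Kifap3 was positive in only 4 of 8 cohorts. The share with a positive r was close to that of all genes.

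**Figure D5:**
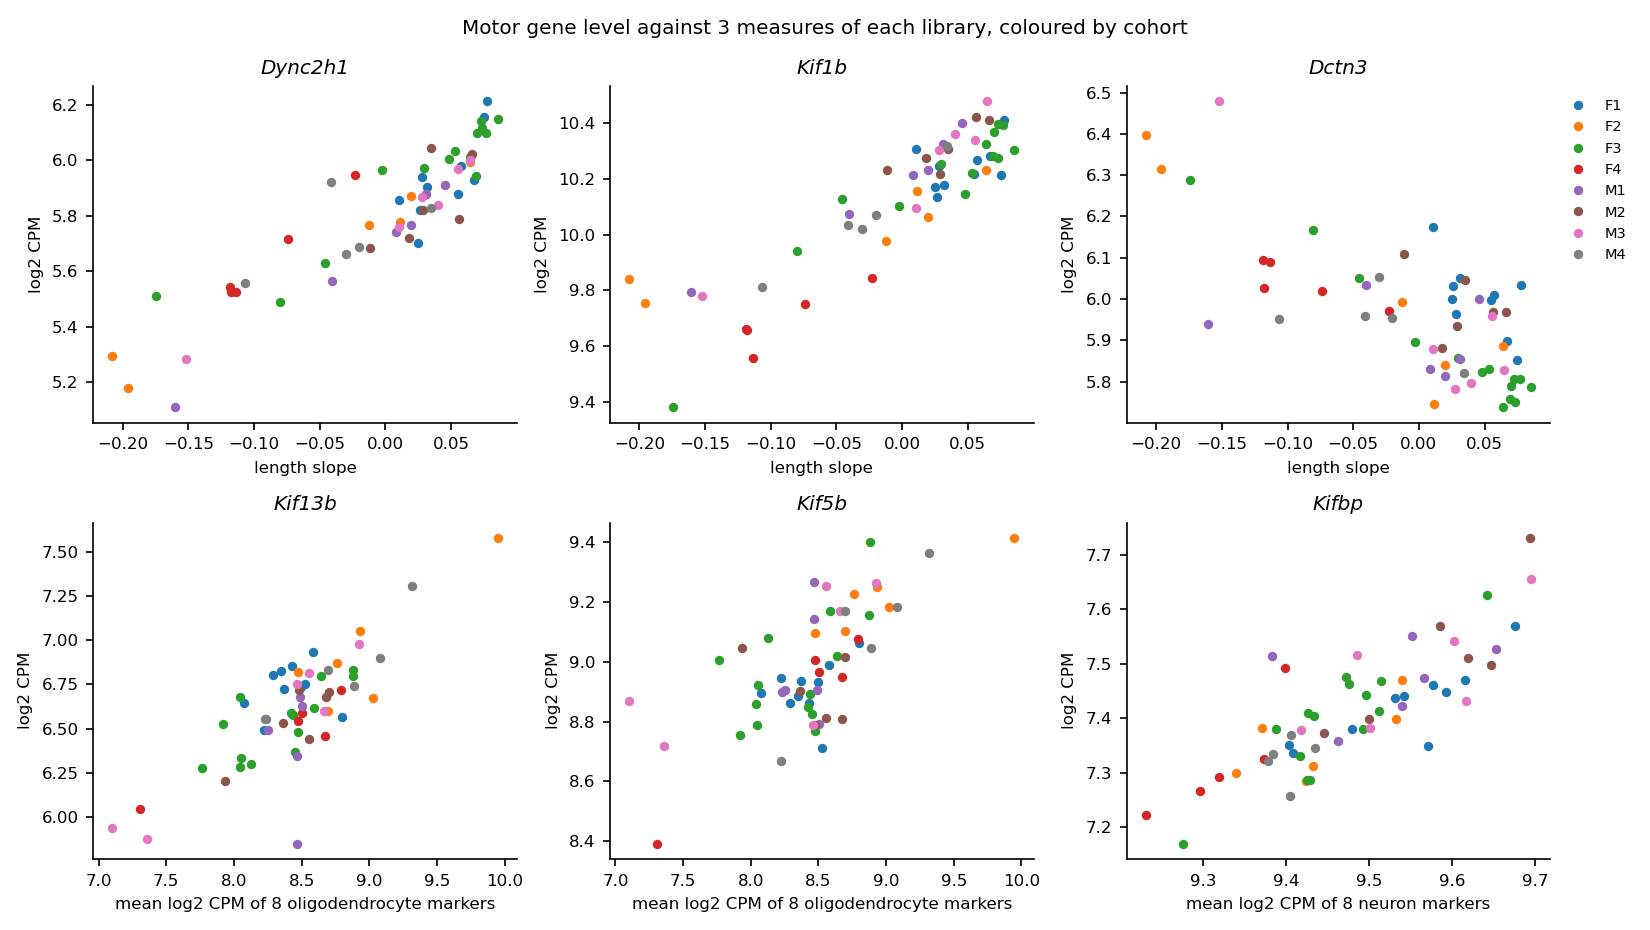
Log2 CPM of 5 motor genes and the kinesin-binding protein gene Kifbp against the length slope (top) and the mean log2 CPM of oligodendrocyte or neuron markers (bottom); points are 58 libraries coloured by cohort. Dync2h1 and Kif1b climb with the slope, Dctn3 descends, and Kif13b climbs with the oligodendrocyte markers.

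Promoters are shown for members that followed a cell type's markers: Kif13a and Kif1c, those of the 6 oligodendrocyte-linked genes with an entry, and Kifbp. RefSeq (GRCm38.p6) had an entry for 28 of 40 members, 34 promoters in all. Each is 300 bases, 5′ to 3′ on the gene's strand, with matches to 5 motifs in capitals, searched on both strands; no matches overlapped in the sequences shown. The GC box was searched as GGGCGG. The CCAAT box and the TATA box (searched as TATAAA) were taken next. The SOX motif was searched as ACAAAG, and the cAMP response element as TGACGTCA.
Kif13a, chr13:46929669-46929968, minus strand: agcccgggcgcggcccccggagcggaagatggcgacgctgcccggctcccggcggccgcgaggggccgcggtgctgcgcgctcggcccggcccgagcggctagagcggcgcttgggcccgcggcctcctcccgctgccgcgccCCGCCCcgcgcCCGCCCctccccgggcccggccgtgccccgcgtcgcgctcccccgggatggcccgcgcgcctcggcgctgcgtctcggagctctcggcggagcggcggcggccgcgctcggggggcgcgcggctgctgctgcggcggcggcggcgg
Kif1c, chr11:70700298-70700597, plus strand: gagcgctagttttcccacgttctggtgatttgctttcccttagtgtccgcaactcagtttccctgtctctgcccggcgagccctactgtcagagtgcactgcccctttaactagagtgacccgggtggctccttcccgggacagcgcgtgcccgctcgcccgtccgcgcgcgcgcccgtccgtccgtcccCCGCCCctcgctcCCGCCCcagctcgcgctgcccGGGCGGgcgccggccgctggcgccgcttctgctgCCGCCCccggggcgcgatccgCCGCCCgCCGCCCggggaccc
Kifbp, chr10:62578408-62578707, minus strand: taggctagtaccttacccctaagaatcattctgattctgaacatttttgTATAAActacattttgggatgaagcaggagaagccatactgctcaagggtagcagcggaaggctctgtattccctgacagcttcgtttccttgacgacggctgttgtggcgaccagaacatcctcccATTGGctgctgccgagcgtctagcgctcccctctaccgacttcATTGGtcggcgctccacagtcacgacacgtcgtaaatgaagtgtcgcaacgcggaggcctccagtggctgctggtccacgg
Kif13a had 2 GC boxes and a GC content of 86.7%, and Kif1c had 6 and 73.3%. Kifbp had 0 GC boxes, 2 CCAAT boxes, 1 TATA box and 53.3%. None of the 3 held the other motifs in this window. Over 32817 promoters of the same length, 35.6% held a GC box, 37.4% a CCAAT box, 13.6% a TATA box, 18.7% the SOX motif and 1.79% the cAMP response element. These promoters were not limited to genes of the count table, so a difference from them cannot be read as particular to motor genes. Over the 34 member promoters the shares were 70.6% for the GC box, 35.3% for the CCAAT box, 5.88% for the TATA box, 14.7% for the SOX motif and 11.8% for the cAMP response element, and the median GC content was 61.5% against 52.7% over all.

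Exons of some members overlap genes on the opposite strand in GENCODE M21: 43.6% of the exon bases of Kif3c, 14.4% of Kifc3, 13.7% of Klc2, 13.2% of Kif2a, 12.7% of Kifbp and 9.23% of Dync1li2. Smaller shares were those of Dctn6 (5.43%), Kifc2 (4.67%), Kif5b (4.43%) and Dync1h1 (3.14%). The libraries were directional, but no source used here gives the strand setting of the counting. The values of all these genes may thus include reads of the antisense partner.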

How the data were processed

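Bulk poly(A)-selected RNA was sequenced from directional NEBNext libraries, per the labels' protocols. The authors deposited 1 table of raw counts, 9636 genes by 58 libraries; they used STAR, featureCounts and DESeq2 with GRCm39/mm39, per the submitters' processing notes, and no source used here gives versions, annotation or strand setting. No count is under 101 and no gene averages under 270.1 counts, so genes of low count were left out before deposit and their motors were not analysed here.

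The counts were fitted in R 4.3.3 with edgeR 4.0.16: TMM scaling, the quasi-likelihood test with robust estimation, 8 groups (sex by injury by treatment) and cohort within sex, 14 coefficients, 44 residual degrees of freedom. Comparisons over both sexes average the female and the male difference. The model was tested on simulated data. filterByExpr removed 0 genes, and the biological coefficient of variation was 0.123. No library pair of a group came near sampling noise (chi-square over degrees of freedom at least 9.83). Exon length is the union of exons in GENCODE M21 (GRCm38); no coordinate of another build was used. Log2 CPM used a prior count of 2.

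The alternatives were DESeq2 1.42.0, RLE size factors, a minimum of 20 CPM, no cohort term, a block on the replicate number, the length slope as a covariate, the cohorts with sham SB mice alone and each library left out. Leaving out the 5 libraries of low length slope was added after seeing the data. The members and all lists were chosen with earlier results of these data known. Genes named are the 5 of smallest p per direction for the injury comparison in vehicle mice and the SB comparison in injured mice, 2 per direction for the other comparisons, 6 for each cohort test, a fixed set of core subunits and the smallest p of each pathway list. Other genes beyond this rule, such as Kif3c and Dync2h1 without the 5 libraries, further pathway genes and those of the relations with library measures, were named after their values were seen.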

Additional observations from a re-analysis of the deposited data

Results flagged for a closer look

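Within each group of 4 to 10 libraries, a library was singled out where its gap to the nearest other was a large part of the group's range (Dixon's test at 95%). Of 160 gene and group pairs, 8 were singled out (5.0%), and chance alone gives about 1 in 20. In sham vehicle males, replicate 2 was highest for Dctn3 (89.19 CPM) and for Klc4 (34.83 CPM). In sham vehicle females, replicate 7 was lowest for Dync1i1 (88.06 CPM) and replicate 1 highest for Kif13b (191.3 CPM). All 3 are among the 5 libraries of low length slope. In injured vehicle males, replicate 2 was highest for Kif13a (77.7 CPM), replicate 3 lowest for Kif17 (25.46 CPM) and replicate 8 highest for Kifc2 (684.6 CPM). In injured SB males, replicate 6 was highest for Dync1i2 (211.8 CPM).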

How the results depend on the processing

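The count of motor genes past the threshold stayed at 0 in all 11 injury, SB, interaction and sex comparisons under every alternative run and without each library in turn. Signs of 6 genes named for injury in vehicle mice turned without the 5 libraries of low length slope: Dync1li2 to -0.00134, Kif1b to -0.0599, Kif3b to -0.0508, Kif5a to -0.0259, Kif3a to 0.0308 and Klc4 to 0.0430. That choice by slope in itself shifts differences by exon length. No other alternative, and no single library left out, turned a gene named for injury or for SB in injured mice. The cohort counts moved more. With the replicate block, 9 members were called in females and 0 in males; the labels' replicate numbers did not pair the samples, since correlations of same-numbered libraries ran from -0.60 to 0.59, and the block changed no other count. In males RLE size factors and the minimum of 20 CPM also gave 0 calls, and leaving out the 5 libraries gave 8 (16.4% of all genes). Leaving out 1 library at a time gave 0 to 3 calls in males and 18 to 25 in females. Shares of all genes for the other settings are not given here, so these cohort counts are not read as particular to motor genes. Depth does not limit these genes, since the spread between libraries exceeds counting error. The 5 sham SB mice limit the SB comparison in sham mice and the interaction.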
